A study of Homo sapiens with 4 samples.

Results

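The genes described here are 47 genes of the passage from G1 to S phase and of DNA replication. They were taken from a list of symbols and matched to probe sets to which the platform annotation gives that gene alone, and where a gene had several, the probe set of highest average log2 signal stood for it. All 47 were found, among 19740 genes with a named probe set, and 45 of them lay above the detection floor on all 4 arrays. The floor, a signal of 49.0, was the median of all non-control probe sets and stands in for detection calls. In the study, total RNA of human lung adenocarcinoma cells was hybridised to one-colour Affymetrix arrays, with 1 array for each of 4 groups and no replicate. CL1-0, the less invasive of these related lines, carried an empty control vector or a PSAT1 expression vector. CL1-5, obtained from the same parental culture by selection for invasion, carried a non-silencing short hairpin or a hairpin against PSAT1. PSAT1 is phosphoserine aminotransferase, an enzyme of serine synthesis, and serine carbon feeds purine and thymidylate synthesis. Per the labels, all 4 cultures had been transduced, were stable and had been under puromycin for 2 weeks. The labels do not give the hairpin's target site or say whether a culture was 1 clone or a pool.

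In G1, cyclin D with CDK4 or CDK6, and then cyclin E with CDK2, phosphorylate the retinoblastoma protein and its relatives, which frees the E2F transcription factors. E2F factors switch on the genes of S phase. Origins are licensed in G1, when the origin recognition complex, CDC6 and CDT1 load the MCM helicase onto DNA. In S phase the helicase is activated by CDC45 and the GINS complex, and polymerases held by the PCNA clamp copy the strands. High levels of these transcripts are a usual mark of dividing tumour cells.

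Many members hold promoter letters that the choice of genes did not use. The E2F site was searched as TTTCCCGC, TTTGGCGC, TTTGCCGC and TTTCGCGC on both strands, where matches may overlap, in RefSeq windows of GRCh38.p14 from 250 bases before a gene's start to 50 after it. Windows were matched for 39 members, and 23 of these (59.0%) held a match, against 3.99% of the 27305 genes in the table and 6.31% of 11241 genes that were measured in CL1-0 or CL1-5. The other 16 matched members held none. In a wider list of replication and E2F target genes 17 of 54 (31.5%) held a match, and in a list of G2/M genes 2 of 15 (13.3%). Of the 31 matches in members, 17 began within the last 60 bases before the start. Stretches of 160 bases that end just before the start are shown for 6 members, with each match in capitals. CDC25A had the largest difference among matched members in CL1-0, CDT1 passed 1.5-fold in CL1-5, E2F1 held 2 matches, and PCNA is the replication clamp. CCNE1 and MCM10 differed by over 1.5-fold in both lines and held none of these letters in their windows.
CDC25A, chr3:48188418-48188577, minus strand: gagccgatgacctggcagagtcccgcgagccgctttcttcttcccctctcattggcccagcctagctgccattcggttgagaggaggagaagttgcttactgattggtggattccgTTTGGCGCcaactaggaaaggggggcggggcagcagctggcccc
CDT1, chr16:88803629-88803788, plus strand: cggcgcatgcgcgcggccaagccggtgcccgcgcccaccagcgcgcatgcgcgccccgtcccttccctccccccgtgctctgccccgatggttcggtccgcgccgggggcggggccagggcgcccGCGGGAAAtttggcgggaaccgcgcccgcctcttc
E2F1, chr20:33686386-33686545, minus strand: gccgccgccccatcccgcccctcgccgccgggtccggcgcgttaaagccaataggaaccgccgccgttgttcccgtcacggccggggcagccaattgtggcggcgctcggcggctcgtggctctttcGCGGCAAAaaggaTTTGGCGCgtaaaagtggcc
PCNA, chr20:5126623-5126782, minus strand: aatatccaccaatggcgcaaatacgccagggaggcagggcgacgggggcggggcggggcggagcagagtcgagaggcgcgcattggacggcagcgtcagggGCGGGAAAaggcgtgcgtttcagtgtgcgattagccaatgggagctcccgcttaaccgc
CCNE1, chr19:29811831-29811990, plus strand: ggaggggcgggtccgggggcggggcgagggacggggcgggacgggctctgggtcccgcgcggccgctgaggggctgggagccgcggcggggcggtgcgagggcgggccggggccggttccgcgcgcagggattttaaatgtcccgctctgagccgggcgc
MCM10, chr10:13161398-13161557, plus strand: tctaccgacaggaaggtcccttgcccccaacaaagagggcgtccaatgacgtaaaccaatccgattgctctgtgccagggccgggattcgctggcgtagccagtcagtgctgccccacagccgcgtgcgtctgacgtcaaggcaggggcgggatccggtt
A match describes letters and not a bound site. CCND1, CCND2, CCNE2, CDK2, E2F8, MCM4, MCM5 and GINS4 were not matched.

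Arrays of the same line resembled each other, and those of different lines were on different scales. The median signal was 53.2 on both CL1-0 arrays, 45.4 on the CL1-5 control array and 46.0 with the hairpin, and 48.0% to 52.0% of probe sets lay above the floor. RNA integrity was read from the 3'/5' signal ratio of control transcripts, which was 1.07 to 1.10 for GAPDH and 1.18 to 1.38 for ACTB, higher for ACTB in CL1-5. Deposited values were identical on both arrays for 1260 probe sets in CL1-0 and 1749 in CL1-5, and for 0 between the control arrays, of 54675, which was not explained by the labels. PSAT1 itself fell 12.3-fold under its hairpin at the probe set used, from 1760 to 143. With the PSAT1 vector it was 1.30-fold higher, 5494 against 4214, and whether its probe set covers the vector's transcript is not known here. A second PSAT1 probe set had smaller log2 ratios, -1.84 with the hairpin and 0.1 with the vector. The labels call the cells type II alveolar cells. Of 8 alveolar type II markers read here, 6 were above the floor on all 4 arrays (SFTPB, SFTPC, ABCA3, LAMP3, NAPSA and NKX2-1, from 62.3 to 268), and SFTPD and SLC34A2 were below it on all. Of 6 epithelial markers, KRT18, KRT8 and KRT7 were above it on all arrays, and EPCAM, CDH1 and KRT19 below it. Of 8 fibroblast markers, COL1A1 and THY1 were above it on all arrays and 4 below it on all, and COL3A1 read 312 with the empty vector in CL1-0 and 27.4 with PSAT1. The fibroblast markers summed to 795 on the CL1-0 vector array and to 457, 511 and 528 on the others, and their part in the results was not tested. Of 4 immune and endothelial markers, PECAM1 was above the floor on all arrays, and PTPRC and CD3E were below it on all.

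Most members had lower signals with the PSAT1 vector in CL1-0 and higher ones with the PSAT1 hairpin in CL1-5. Values are linear signals, ratios are log2 of a quotient of 2 arrays after the floor, and "rose" and "fell" are kept for 2-fold or more. With 1 array per group no test, p-value or error could be computed, so counts are set beside the share of all measured genes that passed the same rule. In CL1-0, 38 of 47 ratios were negative, against 51.9% of 13167 genes, and 9 were positive, against 47.5%. Their median was -0.16, against -0.02 for all genes. In CL1-5, 42 of 46 ratios were positive, against 52.7% of 12852 genes, and 4 negative, against 46.2%, with a median of 0.23 against 0.02. Many of these ratios were very small, since 13 in CL1-0 and 11 in CL1-5 were within 0.1 of 0. Set apart from those, 30 were lower and 4 higher in CL1-0, where 38.8% and 36.8% of all genes were. In CL1-5, 34 were higher and 1 lower, where 32.7% and 27.9% of all genes were. With quantile normalization and with median centring, 35 and 42 of the 47 were negative in CL1-0, against 54.5% and 58.7% of all genes. In CL1-5, 42 of 46 were positive with both scalings, against 55.4% and 61.0% of all genes. In RNA from whole cultures, fewer cells in S phase and less RNA of these genes per cell cannot be told apart.

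Few members differed by much. In CL1-0, 3 fell at least 2-fold (CCND2, CDC25A and ORC1), which is 6.38% of members against 1.0% of all genes, and 0 rose, against 2.41%. At 1.5-fold, 7 were lower (14.9%, against 4.05% of genes) and 0 higher (against 8.97%). The other 4 were CCNE1, MCM10, CLSPN and CDK6. In CL1-5, 0 members rose or fell at 2-fold, where 0.389% and 0.405% of genes did. At 1.5-fold, 5 were higher (10.9%, against 1.67%), namely CCNE1, E2F8, CCNE2, MCM10 and CDT1, and 0 were lower (against 2.12%). Signals were also averaged over all probe sets of a gene, dim ones included. The 1.5-fold counts were then 4 lower in CL1-0 (against 2.61% of genes) and 2 higher in CL1-5 (against 1.07%).

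**Figure D1:**
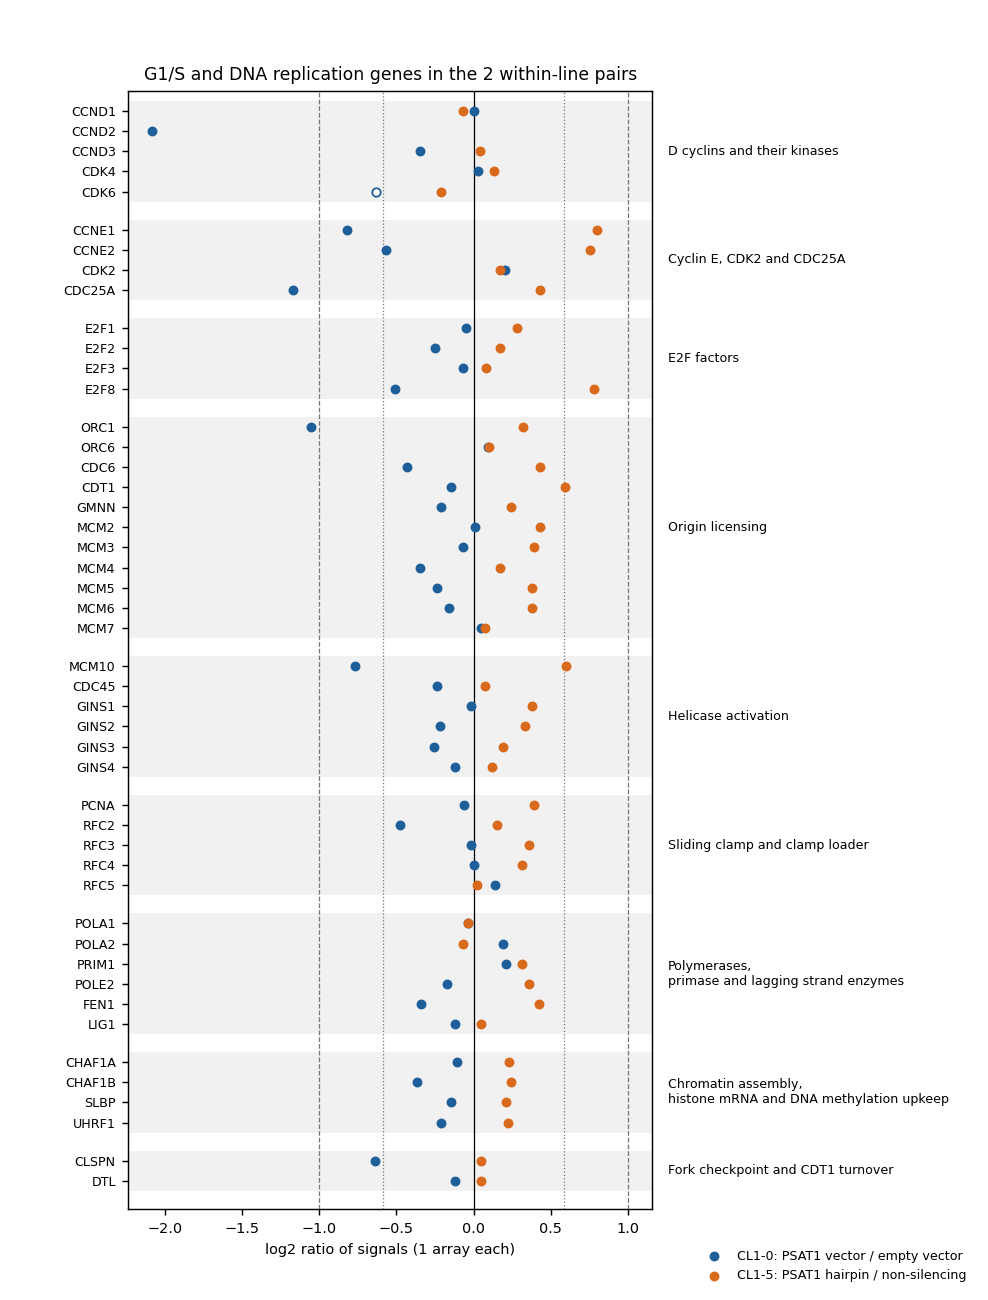
Log2 ratio of every member in the CL1-0 pair (blue) and the CL1-5 pair (orange), 1 array against 1 array, grouped by role; the open circle is a bound, dotted lines mark 1.5-fold and dashed lines 2-fold. Most blue points lie left of 0 and most orange points right of it, and only CCND2, CDC25A and ORC1 pass 2-fold.

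Each set of 4 signals gives CL1-0 first (empty vector, then PSAT1) and CL1-5 after it (non-silencing, then hairpin). Among the D cyclins, the first cyclins of G1, CCND2 read 333, 78.5, 10.5 and 12.7. It fell 4.24-fold with PSAT1 in CL1-0 (log2 ratio -2.08), and a dimmer CCND2 probe set was at least 3.53-fold lower. The mean over its probe sets, dim ones included, gave -0.98, just under 2-fold. In CL1-5 it was below the floor on both arrays and was not measured. CCND1, the D cyclin most often amplified in tumours, read 1039, 1043, 1292 and 1235 and was level within each pair. CCND3 read 948, 743, 1185 and 1216, lower by 1.28-fold in CL1-0 and with a ratio of 0.04 in CL1-5. The partner kinase CDK4 read 4954, 5056, 2414 and 2640, with pair ratios of 0.03 and 0.13. CDK6, the other partner, read 76.0, 32.4, 1691 and 1465. In CL1-0 it was near the floor and at least 1.55-fold lower with PSAT1, while the mean over its 7 probe sets gave a ratio of -0.09 and 2 of 5 alternatives reached 1.5-fold. CCND2 was thus the member with the lowest ratio in CL1-0, and the CL1-5 ratios of the other 4 genes lay between -0.21 and 0.13.

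Cyclin E binds CDK2 at the end of G1, and CDC25A is the phosphatase that removes the inhibitory phosphates from CDK2. CCNE1 read 1433, 811, 446 and 774, so it was 1.77-fold lower with PSAT1 and 1.74-fold higher with the hairpin. CCNE2, the second cyclin E, read 509, 343, 569 and 955 and was 1.49-fold lower and 1.68-fold higher. Its other probe set gave -0.65 and 0.66, close to -0.57 and 0.75 for the one used, while the other CCNE1 probe set was below the floor on all arrays. Averaging over both CCNE1 probe sets gave ratios of -0.41 and 0.40. CDC25A read 2165, 962, 689 and 931. It fell 2.25-fold in CL1-0, where its other probe sets had fold differences of 2.94 and 1.99. With the hairpin CDC25A was 1.35-fold higher, while those other probe sets had ratios of 0.32 and, at the dimmest, 0.02. The kinase CDK2 itself read 1700, 1956, 842 and 946, higher by 1.15-fold and 1.12-fold, a sign unlike that of its activators in CL1-0.

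**Figure D2:**
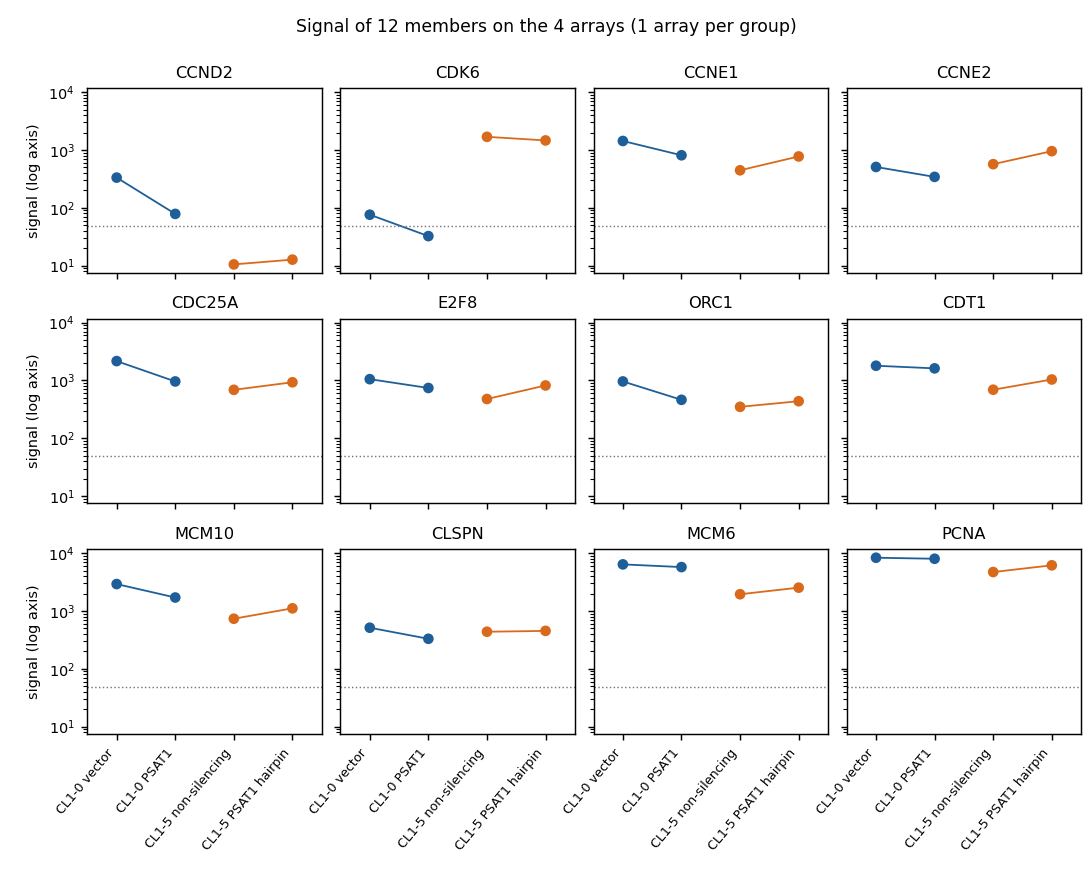
Signal (log axis) of 12 members on the 4 arrays, 1 point per array, with lines joining the arrays of a line and the dotted line at the floor of 49.0. CCNE1, CCNE2, CDC25A, E2F8, ORC1 and MCM10 slope down in CL1-0 and up in CL1-5, while CDK6 is high in CL1-5 alone and CCND2 is below the floor in CL1-5.

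All 4 E2F members had negative ratios in CL1-0 and positive ones in CL1-5, also under both other scalings. Without rescaling, 30.9% of all genes had these signs. The E2F genes outside the members, from the wider list described below, had mixed signs. In CL1-0 and CL1-5, E2F7 had 0.29 and -0.38, E2F5 0.08 and -0.51, E2F4 -0.05 and -0.09, and E2F6 -0.16 and 0.03. E2F8, an atypical E2F that represses E2F targets and is itself one, read 1054, 742, 478 and 820, lower by 1.42-fold and then higher by 1.72-fold. The activators read 330, 319, 349 and 423 for E2F1, 922, 774, 283 and 320 for E2F2, and 1990, 1891, 1059 and 1119 for E2F3. Their CL1-5 ratios were 0.28, 0.17 and 0.08, and a second E2F3 probe set had -0.07 there. E2F8 was therefore the 1 member of this group past 1.5-fold.

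Origin licensing was the largest group, with 11 members. All were positive in CL1-5, against 52.7% of all genes, with a median of 0.38. With quantile normalization and with centring all stayed positive, against 55.4% and 61.0% of all genes, with medians of 0.36 and 0.41. In CL1-0, 8 were negative (median -0.16), against 51.9% of all genes. Under those scalings 8 and 10 were negative, against 54.5% and 58.7%. ORC1, the subunit of the origin recognition complex that comes and goes with the cell cycle, read 962, 463, 350 and 438. It fell 2.08-fold in CL1-0 and was 1.25-fold higher in CL1-5. ORC6, another subunit, read 3107, 3312, 1515 and 1625 with ratios of 0.09 and 0.10. The loader CDC6 read 2413, 1788, 877 and 1183, that is 1.35-fold lower and 1.35-fold higher, and its second probe set gave -0.38 and 0.27. The loader CDT1 read 1800, 1620, 692 and 1040, with a hairpin ratio of 0.59, just past 1.5-fold, where its second probe set had 0.40 and the mean of both 0.50. Geminin (GMNN), which blocks CDT1 once S phase has begun, read 5886, 5104, 3722 and 4407, with ratios of -0.21 and 0.24, in the same directions as CDT1.

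The MCM2 to MCM7 subunits form 1 ring-shaped helicase, and their transcripts differed unequally. With the hairpin in CL1-5, ratios were 0.43 for MCM2, 0.39 for MCM3, 0.38 for MCM5 and MCM6, but 0.17 for MCM4 and 0.07 for MCM7. MCM2 read 3458, 3473, 1788 and 2410, while MCM7 read 3339, 3458, 1552 and 1628. In CL1-0 the ratios ran from -0.35 for MCM4 to 0.05 for MCM7. Pooled over all genes with several measured probe sets, the SD among probe sets of a gene was 0.301 in the CL1-0 pair and 0.179 in the CL1-5 pair. The MCM probe sets had 0.38 and 0.43 for MCM5 in CL1-5, 0.07 and 0.11 for MCM7, and from -0.08, at a dim one, to 0.17 for MCM4. In CL1-0 they ran from -0.59 to -0.21 for MCM4, and MCM6 had -0.16 and 0.16. Whether the subunits differ was not tested.

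Among the factors that activate the helicase, MCM10, which joins it to the polymerases, stood out by size. It read 2920, 1708, 734 and 1110, 1.71-fold lower with PSAT1 and 1.51-fold higher with the hairpin. Its other probe sets had -0.48 and -0.28 in CL1-0, with 0.37 and 0.36 for the hairpin, so the sign was shared by all 3. The probe set that is not of the multi-transcript kind gave -0.28 and 0.36, under 1.5-fold. CDC45 read 871, 735, 287 and 301. The 4 GINS subunits had ratios from -0.26 (GINS3) to -0.02 (GINS1) in CL1-0 and from 0.12 (GINS4) to 0.38 (GINS1) in CL1-5. All 6 genes of this group were thus negative in CL1-0 (5 of 6 with quantile normalization) and positive in CL1-5. Of all genes, 51.9% were negative in CL1-0 (54.5% with quantile normalization) and 52.7% positive in CL1-5. MCM10 alone in the group passed 1.5-fold.

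PCNA, the sliding clamp, read 8333, 7999, 4713 and 6155, with ratios of -0.06 and 0.39. The RFC proteins load that clamp. RFC2 read 2536, 1822, 1093 and 1212, lower by 1.39-fold in CL1-0, and its second probe set had -0.51 there. RFC3, RFC4 and RFC5 had ratios of -0.02, 0.00 and 0.14 in CL1-0 and of 0.36, 0.31 and 0.02 in CL1-5. The brighter of the other RFC3 probe sets had -0.05 in CL1-0, and a dim one -0.84. The median of the 5 clamp and loader genes was -0.02 in CL1-0 (0.04 with quantile normalization) and 0.31 in CL1-5. All 5 were positive in CL1-5, against 52.7% of all genes. They stayed so with quantile normalization and with centring, against 55.4% and 61.0%.

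The polymerase and primase genes had small ratios. The alpha polymerase subunits POLA1 and POLA2 had ratios of -0.04 and 0.19 in CL1-0 and of -0.04 and -0.07 in CL1-5, and the primase PRIM1, their partner, had 0.21 and 0.31. POLE2, of the leading strand polymerase, read 2434, 2163, 594 and 761 (-0.17 and 0.36). FEN1, which trims Okazaki fragments, read 5634, 4454, 3464 and 4622, lower by 1.26-fold and higher by 1.33-fold, with -0.54 and 0.48 at its second probe set. LIG1, which seals the fragments, read 518, 475, 557 and 577. FEN1 was thus the 1 gene of this group past 1.2-fold with opposite signs in the lines.

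The 4 genes that handle chromatin and histone supply were negative in CL1-0 and positive in CL1-5, also under both other scalings. These signs were shared by 30.9% of all genes without rescaling. CHAF1A and CHAF1B, the large subunits of the histone chaperone CAF-1, had -0.11 and -0.37 in CL1-0, with 0.23 and 0.24 for the hairpin. SLBP, which binds histone mRNA, had -0.15 and 0.21, and UHRF1, which brings the maintenance methyltransferase to replicated DNA, had -0.21 and 0.22. The checkpoint mediator claspin (CLSPN) read 513, 330, 437 and 452, 1.55-fold lower in CL1-0 and with a ratio of 0.05 in CL1-5. Its dimmer probe sets had -0.56, -0.34 and -0.09 in CL1-0, and their mean with it -0.41. In CL1-5 those above the floor had 0.15 and 0.47. DTL, which targets CDT1 for breakdown, read 2036, 1875, 1337 and 1388, with ratios of -0.12 and 0.05. A dimmer DTL probe set had -0.58 in CL1-0 and 0.1 in CL1-5.

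By the labels, 1 construct expresses PSAT1 and the other is a hairpin against it. At the probe set used, PSAT1 was 12.3-fold lower with the hairpin but only 1.3-fold higher with the vector. A second probe set had log2 ratios of -1.84 and 0.1. Whether the vector raised PSAT1 in CL1-0 is therefore not settled by these arrays. The pairs were set side by side, since no array belongs to both. Of 46 members measured in both, 35 (76.1%) were lower in CL1-0 and higher in CL1-5, against 30.9% of 11999 genes, and 2 had the reverse signs (CCND1 and POLA2), against 25.4%. With quantile normalization 32 members were lower in CL1-0 and higher in CL1-5, and the share of all genes with that scaling is not given here. Requiring 1.2-fold in each pair left 8 members (17.4%, against 3.03%), which were CCNE1, CCNE2, CDC25A, E2F8, ORC1, CDC6, MCM10 and FEN1, and 0 with the reverse signs (against 4.43%). CCNE1 and MCM10 passed 1.5-fold in both (4.35%, against 0.342%). CDK6 and POLA1 were lower in both lines, 2 members where 20.9% of genes were. CDK2, CDK4, ORC6, MCM2, MCM7, RFC5 and PRIM1 were higher in both, 7 members where 21.3% of genes were. At 1.2-fold in each, 0 members were lower in both or higher in both, against 1.43% and 2.54% of genes. Across members the ratios of the pairs had a Pearson r of -0.38 and a Spearman rho of -0.32 (46 genes). They were -0.40 and -0.43 across the wider list of pathway genes (61 genes), and both were -0.17 across all genes. Genes are not independent replicates, and every point rests on the same 4 arrays.

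**Figure D3:**
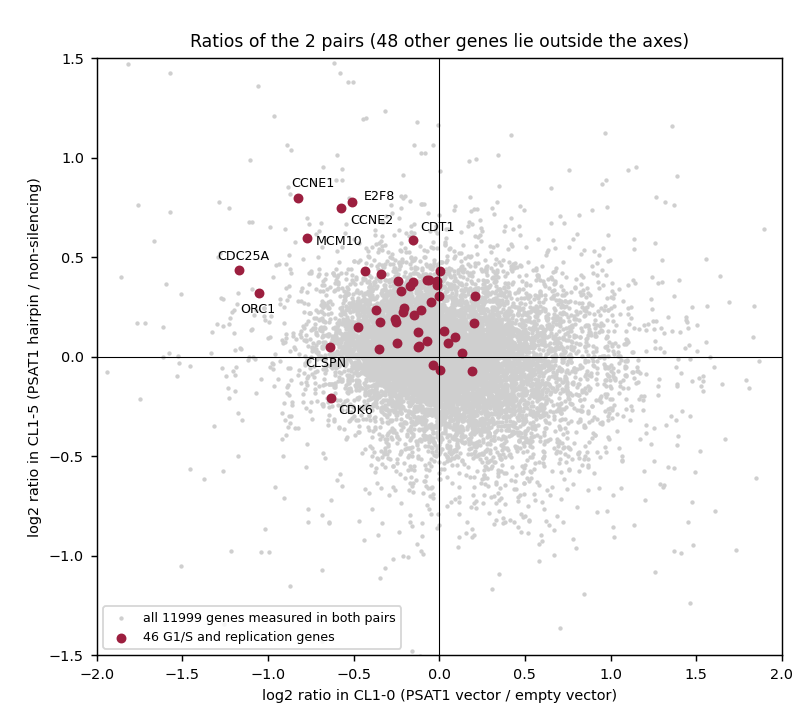
Log2 ratio in CL1-0 (x axis) against that in CL1-5 (y axis) for the 46 members measured in both pairs (red) and all 11999 such genes (grey). Most members lie at the upper left, 35 of 46, with CCNE1, CCNE2, E2F8, MCM10, CDC25A and ORC1 farthest out.

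Members with and without E2F letters were set side by side. In CL1-0 the 23 members with a match had a median ratio of -0.12 and the 16 without one -0.29, and in CL1-5 the medians were 0.28 and 0.22. Those with a match reached 0.59 in CL1-5 and those without it 0.80, so the ranges overlapped.

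Several probe sets of 1 gene are a repeat reading of the same RNA and no replicate. In the CL1-0 pair, 18 of the 26 members with more than 1 measured probe set had the same sign at all of them (69.2%, against 59.3% of 6565 genes). In the CL1-5 pair it was 20 of 25 (80.0%, against 57.6% of 6064 genes). Of all measured member probe sets, 70 of 88 were negative in CL1-0 and 70 of 87 positive in CL1-5. The share of all measured probe sets with these signs is not given here. A gene with several probe sets weighs more in these counts. Probe sets of opposite sign occurred in CCND1, CDK2, CDT1, GINS2, GINS4, MCM6, POLA2 and RFC5 in CL1-0, and in CHAF1A, E2F3, MCM4 and RFC5 in CL1-5. CDK2 was counted with the latter, since a dim probe set of it had a ratio of 0.0 in CL1-5 and the others were positive. None of these members passed 1.5-fold in the pair concerned.

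A wider list of 67 CDK inhibitors, pocket proteins and further replication and E2F target genes was used, of which 63 genes were analysed here. In CL1-0, 33 of 62 were negative (median -0.03), and in CL1-5, 35 of 61 were positive (median 0.05), against medians of -0.02 and 0.02 for all genes. With median centring 43 of 62 were negative in CL1-0, against 58.7% of all genes, and the medians were -0.1 for the list and -0.07 for all genes. At 1.5-fold 3 were higher (4.84%, under the 8.97% of all genes) and 0 lower (against 4.05%) in CL1-0, and 0 passed it either way in CL1-5 (against 1.67% higher and 2.12% lower). Those 3 were RBL2 (705 with vector, 1532 with PSAT1), a pocket protein that holds E2F targets off in resting cells, which rose 2.17-fold and had 0.84 at its other probe set, the chromatin remodeller HELLS (1.56-fold, with probe sets of both signs) and the histone chaperone ASF1B (1.63-fold). RB1 had ratios of 0.21 and -0.22. The inhibitors CDKN1A (p21) and CDKN1B (p27) had -0.30 and 0.00 in CL1-0, with -0.30 and 0.14 for the hairpin. For RRM2 and TYMS, which make deoxynucleotides, the CL1-0 ratios were -0.29 and 0.06 and those in CL1-5 were 0.24 and -0.04, while the S and G2 cyclin CCNA2 had 0.05 and -0.05. A list of 18 G2/M genes mostly had the opposite signs to the members. Of these, 16 were positive in CL1-0 (median 0.29), against 47.5% of all genes, and 15 with centring, against 41.3%. All 18 were negative in CL1-5 (median -0.33), against 46.2% of all genes. At 1.2-fold in each pair, 9 of 18 were higher in CL1-0 and lower in CL1-5, against 4.43% of all genes. With the reverse signs there were 0, against 3.03%.

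Between the control arrays of the lines, member transcripts were mostly lower in CL1-5, by an amount that depends on scale. Signals of all genes were lower on the CL1-5 control array, with a median ratio of -0.48 over 13706 genes, which was 0.00 with quantile normalization and 0.09 with centring on the median. Of the members, 40 had negative ratios, against 76.8% of genes, and 7 positive, against 23.2%. At 2-fold, 23 were lower in CL1-5 (48.9%, against 24.7% of genes) and 1 higher (against 5.14%). At 1.5-fold 35 were lower (against 44.3%) and 1 higher (against 8.39%). With quantile normalization the 2-fold counts were 5 lower (10.6%, against 8.87% of genes) and 3 higher (6.38%, against 9.40%), so the share of lower members was near the background. With centring they were 7 lower (14.9%, against 8.59%) and 1 higher (2.13%, against 10.1%). Over all genes, 17.2% of those past 2-fold were higher in CL1-5, but 51.4% with quantile normalization and 54.1% with centring. The members' median was -0.95, and it stayed below that of all genes under quantile normalization (-0.28 against 0.00) and under centring (-0.34 against 0.09). Relative to the median of all genes, 36 members were lower and 11 higher in CL1-5.

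CDK6 was the exception in size, with 1691 in CL1-5 against 76.0 in CL1-0, a 22.2-fold difference, while CCND2 was at least 6.79-fold lower in CL1-5. The lowest other ratios in CL1-5 were those of POLE2 (-2.03), MCM10 (-1.99), MCM6 (-1.72), E2F2 (-1.70) and CCNE1 (-1.68), all of which kept their sign under both other scalings. At the other end, CCND1 (0.31), CCND3 (0.32), CCNE2 (0.16), POLA2 (0.18) and LIG1 (0.10) were at least 1.5-fold above the median of all genes. The cyclin E genes therefore differed from each other between the lines, with CCNE1 3.21-fold lower in CL1-5 and CCNE2 1.12-fold higher, though a second CCNE2 probe set had -0.06. The D cyclin kinases differed likewise, with CDK4 2.05-fold lower. DTL had -0.61, but 0.14 and 0.01 with the other scalings.

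**Figure D4:**
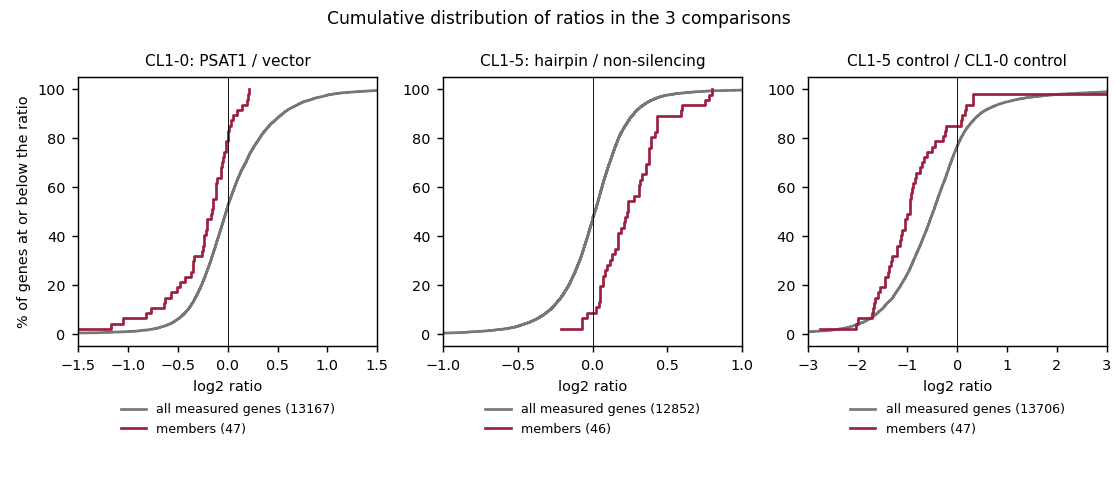
Cumulative share of genes (y axis, percent) at or below each log2 ratio (x axis) for members (red) and all measured genes (grey) in the 3 comparisons, 1 array against 1 array; some genes lie beyond the axes. Members lie left of all genes in CL1-0 (median -0.16), right of them in CL1-5 (median 0.23) and left of them between the control arrays (median -0.95 against -0.48).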

How the data were processed

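Total RNA from 4 cultures, 1 array per group, gave the deposited linear intensity per probe set, which the authors made with MAS5, per the submitters' processing notes. Its version, the scaling target and the build of the probe annotation are not given in the sources used here. Biotinylated cRNA came from 6 ug of RNA, per the labels. Of 54675 probe sets, 62 were controls. The annotation gave 1 gene to 41097, several to 1801 and none to 11777. Y-linked and X-inactivation genes (59 probe sets) were not analysed.

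Signals under 49.0, the pooled 50th percentile of non-control probe sets, were raised to it before log2. A pair measured a gene when at least 1 of its arrays exceeded the floor, and a fold against an array under it is a minimum. The probe set of a gene was the one with the highest mean log2 signal before the floor. Groups were taken from sample titles. Precision is limited by having 4 arrays, and no test was possible. The comparisons were PSAT1 against vector in CL1-0, hairpin against non-silencing in CL1-5, and the control arrays of the lines. All 47 members are accounted for. Of the wider list, genes past 1.5-fold within a line were named, with CDKN1A, CDKN1B, RB1, RRM2, TYMS and CCNA2. E2F4, E2F5, E2F6 and E2F7 were added beside the E2F members, and some regulators for the control arrays. Members and lists were chosen with earlier results of these data known. Scripts were tested on simulated data. Python 3.11.15, numpy 2.4.6 and pandas 2.3.3 were used. Alternatives were quantile normalization, median centring, floors at the 25th and 65th percentile, the mean over probe sets, and leaving out multi-transcript probe sets (names ending in _s_at or _x_at).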

Additional observations from a re-analysis of the deposited data

How the results depend on the processing

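Of 102 comparisons of a count or a median with its value under an alternative, 91 stayed within 1.5 times (counts) or 0.1 on the log2 scale (medians). Within the lines, 2 moved, both with the mean over probe sets. Members past 1.5-fold then numbered 4 lower in CL1-0 (2.61% of all genes) and 2 higher in CL1-5 (1.07%). In that mean, a probe set below the floor on both arrays of a pair enters as no difference, as the other CCNE1 probe set did. How much of the change came from such probe sets was not tested. Between the control arrays, quantile normalization gave 5 lower and 3 higher at 2-fold (8.87% and 9.40% of all genes), 14 lower and 7 higher at 1.5-fold (19.1% and 18.3%) and a median of -0.28. Centring gave 7 lower at 2-fold (8.59%), 17 lower and 7 higher at 1.5-fold (18.1% and 21.4%) and a median of -0.34. Both set the arrays to a common scale. DTL changed sign there, to 0.14 and 0.01. No paired analysis was possible because each group has 1 array. Probe sets near the floor (CDK6 in CL1-0, CCND2 in CL1-5) give only bounds.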

Other observations

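Some regulators upstream of the members differed between the control arrays; CDKN2A, CDKN1A and RB1 are given here, picked after their values were seen. Ratios of the other CDK inhibitors between the controls were -1.68 for CDKN1B, -0.03 for CDKN1C and 0.30 for CDKN2D, and the 5 inhibitors measured had a median of -0.03. CDKN2A, which encodes the CDK4 and CDK6 inhibitor p16 and also ARF, read 607 and 620 on the CL1-0 arrays and was below the floor, at 38.3 and 43.1, on those of CL1-5, at least 12.4-fold lower. CDKN1A read 83.8 and 67.9 on the CL1-0 arrays, against 527 and 427 for CL1-5, 6.29-fold higher between the controls. RB1 read 1976 and 2286 on the CL1-0 arrays, against 701 and 603 for CL1-5, where the control was 2.82-fold lower. The other pocket proteins had -0.70 (RBL1) and -0.15 (RBL2) between the controls, and a second RBL2 probe set had 0.74. Among all genes, 24.7% were at least 2-fold lower in this comparison and 5.14% higher, with a median of -0.48 that depends on scale.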
